A study of Homo sapiens with 6 samples.

Results

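Wnt ligands, their receptors and the regulators of the pathway were examined in SW1990 cells, a long-used line from a human pancreatic ductal adenocarcinoma, after exposure to EPZ-5676 and in controls. EPZ-5676 blocks DOT1L, the enzyme that methylates histone H3 along transcribed genes. The genes were taken by a rule on names: every protein-coding gene named as a WNT or FZD family member, and 19 named co-receptors, ligases, antagonists, destruction complex genes and TCF/LEF factors. The rule found 48 of the 19951 protein-coding genes, in a table of 58735 genes. Polyadenylated RNA was sequenced from 3 libraries of cells given 5 µM EPZ-5676 and from 3 control libraries. The treatment protocol gives the controls an equal volume of the solvent DMSO, whereas their sample characteristics call them untreated. No source used here states how long the cells were treated, and all libraries are labelled as this 1 cell line.

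Wnt proteins are secreted signals that carry a lipid added by the acyltransferase PORCN. They bind Frizzled receptors together with the co-receptors LRP5 or LRP6, which stops a complex of APC, AXIN and kinases from marking beta-catenin for destruction. Beta-catenin then enters the nucleus and activates genes through TCF/LEF factors, among them the feedback inhibitors AXIN2, NKD1, RNF43 and ZNRF3. R-spondins bound to LGR receptors keep the ligases RNF43 and ZNRF3 from clearing Frizzled receptors off the cell surface. Some pancreatic tumour cells depend on their own Wnt ligands, and other branches of the pathway act without beta-catenin.

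The libraries held 33970420 to 39749648 reads assigned to genes. Whether the replicates were separate cultures is not stated, so p-values here reflect the spread between samples alone, which may be technical. DOT1L mRNA was at 69.4 to 101 CPM (reads of a gene scaled to library size with TMM factors) in control cells and 79.7 to 102 CPM in treated cells. It was not called in the main edgeR test described below (adjusted p = 0.636). With GC and length trends removed it was called lower (log2 fold change -0.30, adjusted p = 0.0376). As EPZ-5676 blocks the enzyme and not its transcript, that level is no check of the labels. Of 8 markers of ductal epithelium, the keratins KRT7, KRT8 and KRT18 were abundant, with means of 2258, 3430 and 1493 CPM in treated cells. KRT19, at a mean of 0.385 CPM in treated cells, and EPCAM, at 1.08 CPM, were near 0, and CDH1, which encodes E-cadherin, was at 0 in every library. MUC1 and SOX9 lay in between, with means of 36.7 and 22.2 CPM in treated cells. The markers of ductal epithelium thus did not go together. The identity of the line is taken from the labels and was not tested. The 8 markers summed to 5382 to 6184 CPM in control cells and 6570 to 8362 CPM in treated cells. Most of that sum was KRT7, KRT8 and KRT18. With GC and length trends removed their groups overlapped and none was called (log2 fold changes -0.15, 0.13 and 0.10). EPCAM went the other way, with every treated library below every control, and was not called in the main test (adjusted p = 0.123). Of 7 fibroblast markers, 4 had a mean of at least 1 CPM, and the 7 summed to 83.9 to 94.7 CPM in control cells and 94.0 to 100.1 CPM in treated cells. They did not move together. In the main test COL1A1 was called higher (log2 fold change 0.48, adjusted p = 0.00676). DCN (-0.46, adjusted p = 0.0164) and LUM (-1.04, adjusted p = 0.0105) were called lower. The others were not called or not tested, and none was called with GC and length trends removed. All 4 acinar markers were at 0, and 1 of 5 immune and 1 of 4 endothelial markers reached a mean of 1 CPM. Reads of 3 immune markers lay almost wholly in control replicate 2, with 153 for PTPRC, 77 for LYZ and 14 for CD3E. Elsewhere PTPRC had 8 reads in treated replicate 2 and LYZ 2 in control replicate 1, and the other counts of these genes were 0. The part of such differences in the results below was not tested.

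The Wnt genes that changed were mostly higher in treated cells, among them the ligands WNT11 and WNT7B, while the R-spondin receptor LGR4 had the largest fall. Of the 48 genes, 37 had enough reads to be tested, 10 of them were higher and 3 lower. A gene is said to have risen or fallen where its adjusted p was under 0.05 in the quasi-likelihood test of edgeR, adjusted by Benjamini and Hochberg's method over all 15496 genes tested. Among all genes tested, 15.0% were called higher and 18.7% lower. In bulk RNA, fewer cells of a kind and less RNA per cell cannot be told apart. The median log2 fold change (treated over control) was 0.10 over the 37 genes and -0.05 over all genes tested. All 3 treated libraries lay above all 3 controls for 14 of the 37 genes and below them for 5, against 21.8% and 24.2% of all genes tested. The count of lower members was 1 without control replicate 1, which left LGR4, and 6 without control replicate 2. Between 7 and 10 members were higher when any 1 library was left out.

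The picture changed when smooth trends of expression with the GC content and length of transcripts were removed from each library, a step called the correction here. Of the 37 genes, 2 were then higher, WNT11 and WNT7B, and 2 lower, LGR4 and the co-receptor LRP5. Among all genes, 5.40% were called higher and 5.57% lower in that fit, close to the share among the members. The median of the members was -0.03 after the correction. WNT11, WNT7B and LGR4 passed the threshold in the same direction in all 24 alternative settings, the corrected fit among them.

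**Figure D1:**
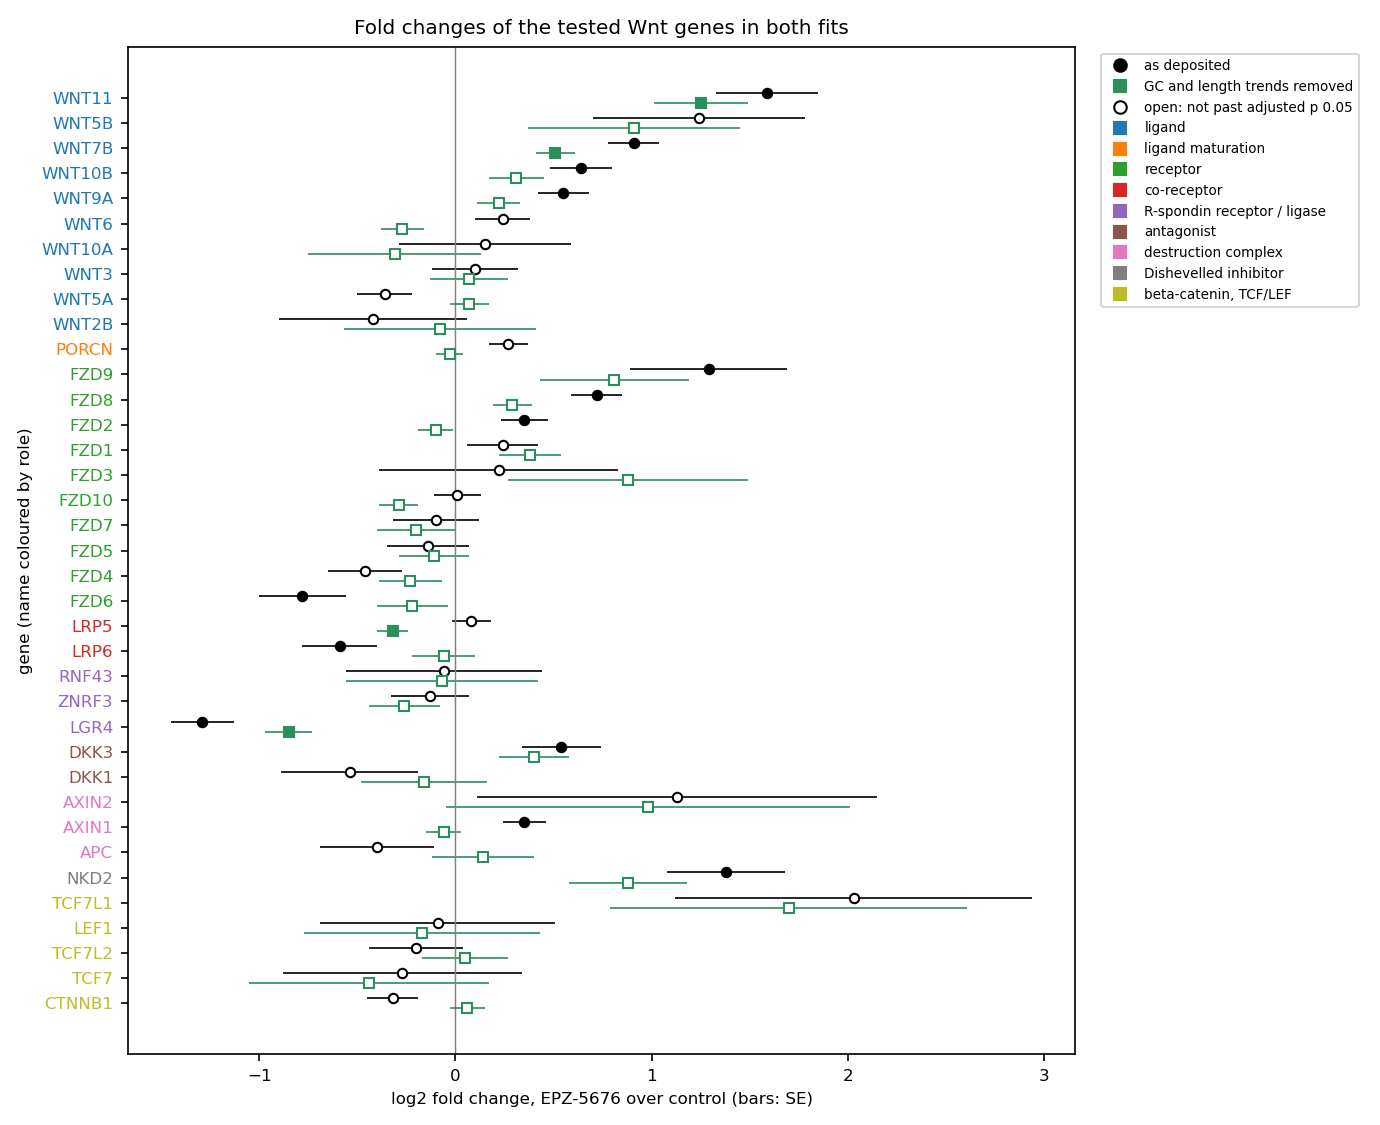
Log2 fold changes of the 37 tested Wnt genes, EPZ-5676 over control, on the horizontal axis, with bars for the standard error; each row is a gene, with its name coloured by role. Black circles are the fit to the deposited counts and green squares the fit with GC and length trends removed; filled symbols passed an adjusted p of 0.05. WNT11, WNT7B and LGR4 are filled in both fits, and LRP5 only in the corrected one.

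The direction of change followed the base composition of the transcripts, among the Wnt genes as among all genes. Of 16 tested members whose longest transcript had a GC content of at least 55%, 9 rose and 0 fell. Among all genes of that GC content, 38.5% rose and 0.847% fell. Of 9 members under 45% GC, 0 rose and 3 fell, where 0.678% and 43.1% of all such genes did. Of the 12 members between these limits 1 rose and 0 fell, where 7.96% and 10.7% of all such genes did. Pearson's r between GC content and log2 fold change was 0.67 across the 37 members and 0.59 across 15487 genes, which share the same 6 libraries. After the correction it was 0.22 across the members. The log2 fold changes of WNT11, WNT7B and LGR4 were 1.59 ± 0.26, 0.91 ± 0.13 and -1.29 ± 0.16 (± SE) before the correction and 1.25 ± 0.24, 0.51 ± 0.10 and -0.85 ± 0.12 after it.

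The coding sequences of 5 genes, picked after their values were seen, illustrate the range of base composition and test nothing. The 120 bases at the middle of the coding sequence, from the longest GENCODE transcript (release 29) with a complete coding sequence, are shown 5′ to 3′ for 2 genes that fell and 3 that rose, with G and C in capitals. They are coding bases 1369 to 1488 of LGR4 (chromosome 11), 2362 to 2481 of LRP6 (chromosome 12), 472 to 591 of WNT11 (chromosome 11), 466 to 585 of WNT7B (chromosome 22) and 982 to 1101 of FZD8 (chromosome 10).
LGR4: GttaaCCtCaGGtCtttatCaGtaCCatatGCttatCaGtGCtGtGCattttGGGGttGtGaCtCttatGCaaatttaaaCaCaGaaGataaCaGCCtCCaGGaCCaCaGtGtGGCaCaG
LRP6: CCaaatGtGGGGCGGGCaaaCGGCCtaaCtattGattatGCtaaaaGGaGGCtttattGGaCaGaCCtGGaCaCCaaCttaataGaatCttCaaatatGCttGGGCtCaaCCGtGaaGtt
WNT11: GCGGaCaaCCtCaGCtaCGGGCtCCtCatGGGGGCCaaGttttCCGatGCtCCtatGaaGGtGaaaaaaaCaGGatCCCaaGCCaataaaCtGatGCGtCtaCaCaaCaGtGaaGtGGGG
WNT7B: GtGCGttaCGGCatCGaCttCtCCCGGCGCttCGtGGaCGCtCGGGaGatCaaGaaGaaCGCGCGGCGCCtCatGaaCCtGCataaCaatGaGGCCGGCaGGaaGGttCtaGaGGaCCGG
FZD8: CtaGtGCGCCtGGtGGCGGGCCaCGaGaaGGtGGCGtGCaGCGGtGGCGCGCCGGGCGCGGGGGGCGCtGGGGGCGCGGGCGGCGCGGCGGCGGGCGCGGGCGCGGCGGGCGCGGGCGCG
G and C made up 52 and 53 of the 120 bases in LGR4 and LRP6, 62 in WNT11, 73 in WNT7B and 106 in FZD8. Over the whole coding sequence their share was 44.5% in LGR4, 46.5% in LRP6, 62.6% in WNT11, 62.7% in WNT7B and 70.9% in FZD8. The stretch of WNT11 is thus poorer in G and C than the rest of its coding sequence. A coding sequence rich in G and C did not go with a call in every member. FZD5 (67.6%), FZD7 and ZNRF3 (65.7% each), FZD1 (65.5%) and FZD10 (64.7%) did not pass before the correction. The trend above was read on whole transcripts, where these 5 genes held 49.9%, 52.8%, 53.5%, 47.7% and 58.4% G and C. WNT6, rich in its coding sequence (71.2%) and its transcript (70.5%), did not pass either, nor did WNT10A (66.6% and 65.4%).

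**Figure D2:**
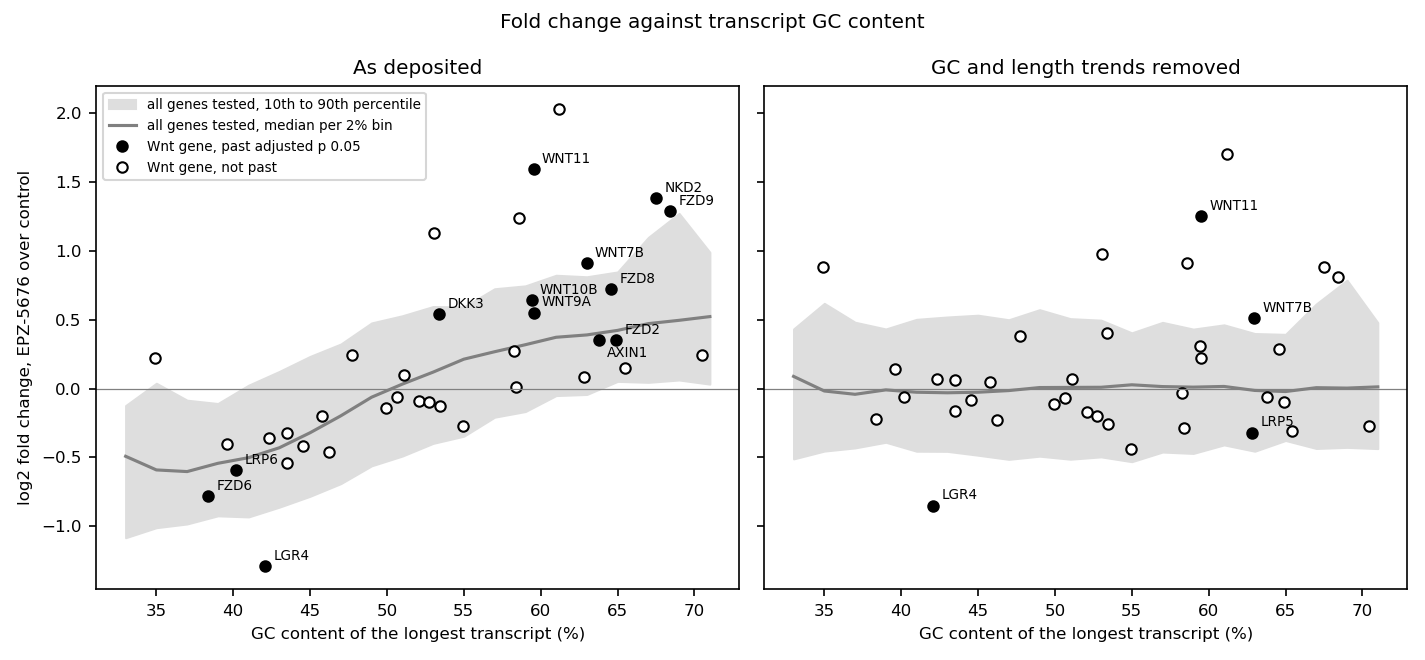
Log2 fold change of the 37 tested Wnt genes (points) against the GC content of the longest transcript in percent, for the deposited counts (left) and with GC and length trends removed (right). The grey line and band are the median and the 10th to 90th percentiles of all genes tested, in bins of 2% GC; filled points passed an adjusted p of 0.05. On the left the filled points lie low at low GC and high at high GC, and on the right 4 filled points remain.

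Of the 19 Wnt ligand genes, 10 were tested, of which 4 rose and 0 fell. Among all genes tested 15.0% rose and 18.7% fell. The median GC content of the 10 ligand transcripts was 59.5%, and of all genes with at least 55% GC 38.5% rose and 0.847% fell. The share of rises among the ligands, 40.0%, was thus near that of genes of such GC content. WNT11, a ligand best known for signalling without beta-catenin (ENSG00000085741, chromosome 11, 76186325 to 76210736, GRCh38), was at 2.09, 1.75 and 2.12 CPM in control cells and 6.79, 6.33 and 4.91 CPM in treated ones. The groups did not overlap, and its mean was 3.02-fold higher in treated cells (adjusted p = 0.00023, and 0.00179 after the correction). WNT7B, a ligand of epithelia that signals through beta-catenin in several tissues (ENSG00000188064, chromosome 22, 45920362 to 45977129), was at 21.4, 25.8 and 27.8 CPM in control cells. In the treated libraries it was at 51.0, 45.5 and 44.7 CPM, all above the controls, a fold of 1.88 (adjusted p = 8.3e-05, and 0.0021 after the correction).

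WNT9A and WNT10B rose by less. WNT9A was at 26.3, 29.6 and 23.9 CPM in control cells and 37.0, 40.0 and 39.6 CPM in treated cells (log2 fold change 0.55 ± 0.13, adjusted p = 0.00302). WNT10B was at 10.4, 9.70 and 10.1 CPM against 15.4, 14.4 and 17.4 CPM (0.64 ± 0.16, adjusted p = 0.00511). Neither gene's groups overlapped, but neither passed after the correction (adjusted p = 0.212 and 0.188). WNT5A, a ligand of the branches that act without beta-catenin, was at 81.0, 55.6 and 84.9 CPM in control cells and 48.5, 66.3 and 57.7 CPM in treated cells. Its groups overlapped, and it did not pass (adjusted p = 0.0534) except in 5 of the 24 settings, among them the fits without control replicate 2 and without treated replicate 2. The remaining ligands tested were WNT6, WNT3, WNT10A, WNT5B and WNT2B. WNT6 was at 27.4, 37.8 and 35.8 CPM in control cells and 40.0, 35.7 and 43.4 CPM in treated cells, with overlap. WNT3, a ligand of the beta-catenin branch, lay between 4.45 and 5.87 CPM in control cells and between 5.30 and 5.79 CPM in treated cells. WNT10A, WNT5B and WNT2B stayed under 1.5 CPM in each library. All 3 treated values of WNT5B lay above its controls, and those of WNT2B lay below its controls. The count of WNT2B is uncertain, because 2661 of its 12561 exon bases overlap the more highly expressed ST7L.

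PORCN, the acyltransferase that all of these ligands need for release, was at 110, 130 and 113 CPM in control cells. It was at 152, 138 and 134 CPM in treated cells, all above the controls, with an adjusted p = 0.0504 that became 0.850 after the correction. It passed in 6 of the 24 settings, among them DESeq2 and RLE scaling.

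**Figure D3:**
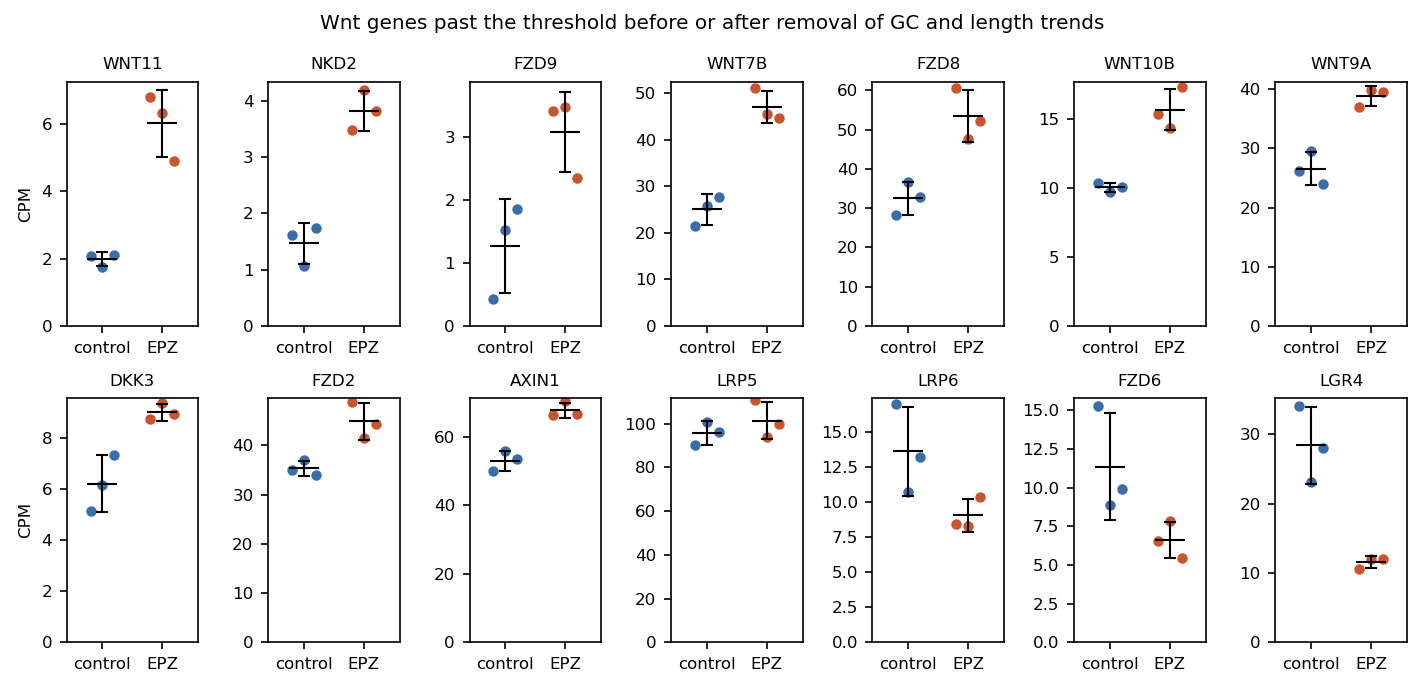
CPM (vertical axes, each starting at 0) in the 3 control (blue) and 3 EPZ-5676 libraries (orange) for the 14 Wnt genes past the threshold in either fit, with the mean and standard deviation in black. The genes are ordered from the largest rise, WNT11, to the largest fall, LGR4; LRP5 overlaps between groups here and passed only with GC and length trends removed.

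All 10 Frizzled receptor genes were tested, of which 3 rose and 1 fell, against 15.0% and 18.7% of all genes tested. FZD8 was at 28.2, 36.6 and 32.7 CPM in control cells and 60.7, 47.6 and 52.2 CPM in treated cells (0.72 ± 0.13, adjusted p = 0.00049). FZD2 was at 34.9, 37.0 and 33.9 CPM against 48.8, 41.4 and 44.3 CPM (0.35 ± 0.12, adjusted p = 0.0287). Both receptors had every treated library above every control. FZD9 was scarce, at 0.428, 1.52 and 1.85 CPM in control cells and 3.41, 3.48 and 2.35 CPM in treated cells (1.29 ± 0.40, adjusted p = 0.0181). FZD6, a receptor also known from planar cell polarity (chromosome 8, 103298433 to 103332866), was at 15.3, 8.90 and 9.89 CPM in control cells and 6.57, 7.84 and 5.46 CPM in treated cells (-0.78 ± 0.22, adjusted p = 0.00924). Its treated values were all below the controls, with control replicate 1 far above the other 2.

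None of these 4 receptors passed after the correction, where FZD8 came nearest (0.29 ± 0.10, adjusted p = 0.0575) and FZD2 turned to -0.10. FZD2 missed the threshold without control replicate 1 or 3 or treated replicate 1 or 3. FZD9 missed it without control replicate 1 or treated replicate 1, and FZD6 without control replicate 1 or treated replicate 3. The other 6 receptors did not pass. FZD10 was at 44.5, 50.3 and 47.4 CPM in control cells and 43.7, 46.9 and 52.4 CPM in treated cells, so that the groups overlapped over most of their range. FZD1 was at 7.37, 7.07 and 7.96 CPM in control cells and 8.66, 9.09 and 8.70 CPM in treated cells, with no overlap. FZD5 and FZD7 lay between 5.24 and 8.98 CPM in all libraries and FZD3 between 0.286 and 1.31 CPM, each with overlap. FZD4 averaged 10.9 ± 2.14 CPM in control cells and 7.93 ± 0.961 CPM in treated cells (SD, n = 3), with every treated library below every control, and was called lower only without control replicate 2. Its count is uncertain, because 1399 of its 7383 exon bases overlap the oppositely oriented gene PRSS23, which had 122104 reads over the 6 libraries against 2075 for FZD4, and no source used here states whether the counting used strand.

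The co-receptors LRP5 and LRP6 differed in level and in base composition, with transcripts of 62.8% and 40.2% GC. LRP5 was at 90.1, 101 and 96.0 CPM in control cells and 111, 93.7 and 99.9 CPM in treated cells. The groups overlapped (0.08 ± 0.10, adjusted p = 0.564). After the correction LRP5 was lower (-0.32 ± 0.08, adjusted p = 0.00976), a call lost without treated replicate 2 or 3 (0.0601 and 0.0551). LRP6 was at 17.0, 10.7 and 13.2 CPM in control cells and 8.47, 8.32 and 10.4 CPM in treated cells. It fell (-0.59 ± 0.19, adjusted p = 0.0217), but its log2 fold change was -0.06 after the correction, and the uncorrected call was lost without control replicate 1 or 3 or treated replicate 1 or 2.

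LGR4, the R-spondin receptor (ENSG00000205213, chromosome 11, 27365961 to 27472775), was at 34.0, 23.0 and 28.0 CPM in control cells and 10.6, 12.1 and 12.0 CPM in treated ones. Each treated library was below each control, and the mean in treated cells was 0.408 times that in controls (adjusted p = 2.7e-05, and 0.00012 after the correction). LGR5, its relative in intestinal stem cells, had 0 reads in every library. The receptor-clearing ligases did not pass. ZNRF3 was at 9.18, 11.2 and 8.87 CPM in control cells and 11.1, 8.66 and 7.13 CPM in treated cells. RNF43 was at 1.01, 0.716 and 1.04 CPM against 0.483, 1.05 and 1.11 CPM. The groups overlapped for both. Most exon bases of RNF43 are shared with other gene models, 4326 of 7505 with AC004687.2 on its own strand, so its count is uncertain.

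Of the secreted antagonists, which keep LRP5 and LRP6 from Wnt in the case of DKK1, DKK3 rose and DKK1 did not pass. DKK3, a divergent family member, was at 5.13, 6.15 and 7.34 CPM in control cells and 8.72, 9.35 and 8.93 CPM in treated cells (0.54 ± 0.20, adjusted p = 0.0423). The groups did not overlap, but the call was lost without any 1 library except control replicate 3, and after the correction (0.162). DKK1 was at 5.13, 1.86 and 3.54 CPM in control cells and 1.42, 3.22 and 2.58 CPM in treated cells. The control values spread over a wider range than the difference between the groups.

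Of the scaffold proteins of the destruction complex, AXIN1 rose. It was at 49.9, 55.7 and 53.4 CPM in control cells and 66.4, 70.3 and 66.6 CPM in treated cells, with no overlap (0.35 ± 0.11, adjusted p = 0.0137). Leaving out treated replicate 2 ended the call, and after the correction the log2 fold change was -0.06. APC was at 3.77, 2.60 and 3.62 CPM in control cells and 2.03, 2.51 and 3.03 CPM in treated cells. Its groups overlapped, and it did not pass. AXIN2, a direct target of beta-catenin that is often read as a measure of pathway activity, had 14, 1 and 0 reads in the controls and 12, 10 and 8 in the treated libraries. The treated counts lay between those of control replicate 1 and of the other 2 controls, which are not scaled to library size. Scaled to it, AXIN2 was at 0.352 CPM in control replicate 1 and 0.386 CPM in treated replicate 1, and it did not pass. Its count is also uncertain, because 1316 of its 5226 exon bases are shared with AC004805.1 on its own strand, which had 0 reads. NKD2, an inhibitor that binds Dishevelled, was at 1.61, 1.06 and 1.74 CPM in control cells and 3.48, 4.19 and 3.82 CPM in treated cells. Every treated library was above every control, and it rose (1.38 ± 0.30, adjusted p = 0.00197). After the correction NKD2 did not pass (0.88 ± 0.30, adjusted p = 0.0636). Its relative NKD1, also a target gene of the pathway, had 2 to 6 reads in the controls and 5 to 23 in the treated libraries and was not tested.

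Beta-catenin and the TCF/LEF factors gave no call. CTNNB1, which encodes beta-catenin, was at 196, 136 and 177 CPM in control cells and 123, 162 and 123 CPM in treated cells. The groups overlapped through control replicate 2 and treated replicate 2 (-0.32 ± 0.13, adjusted p = 0.0608). It passed in 4 of the 24 settings, among them the fits without control replicate 2 and without treated replicate 2, and its log2 fold change was 0.06 after the correction. TCF7L2, the most expressed of the factors per length, was at 5.51, 4.26 and 6.83 CPM in control cells and 4.41, 4.28 and 5.71 CPM in treated cells. LEF1, itself a target of the pathway in many cells, was at 0.553, 0.458 and 0.777 CPM against 0.837, 0.342 and 0.506 CPM. The groups overlapped for both factors. TCF7 had 10 to 56 reads in the controls and 16 to 36 in the treated libraries, and its exons overlap SKP1 on the other strand, which makes its count uncertain. TCF7L1, which acts mostly as a repressor, had 0, 6 and 6 reads in the controls and 12, 23 and 13 in the treated libraries. The treated libraries of TCF7L1 all lay above the controls, but the gene did not pass.

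Per length of gene, the cells held a small part of the family at high level. Levels here are CPM per kilobase of the gene length in the table, as mean ± SD over 3 libraries. That length exceeds the longest transcript with a complete coding sequence for some genes. It is 11927 against 4735 bases for CTNNB1 and 5051 against 3919 for WNT7B, but 3971 in both for WNT9A. The orders, overlaps and shares below hold for this length and could differ with transcript length. Among the ligands in control cells, WNT6 stood at 19.8 ± 3.24, WNT5A at 9.98 ± 2.15, WNT9A at 6.69 ± 0.713, WNT7B at 4.95 ± 0.649 and WNT10B at 3.82 ± 0.125. WNT6 made up 41.3% of the summed ligand level, and the library ranges of neighbours in this order did not overlap. In treated cells WNT6 was again the highest, at 23.3 ± 2.27, followed by WNT9A at 9.78 ± 0.410, WNT7B at 9.32 ± 0.680, WNT5A at 7.77 ± 1.21 and WNT10B at 5.97 ± 0.573. The library ranges of WNT9A and WNT7B overlapped there, as did those of WNT7B and WNT5A and of WNT5A and WNT10B. WNT11 stood at 0.826 ± 0.0859 in the controls and 2.50 ± 0.409 in treated cells. The ligand with the largest fold rise among those called was thus less abundant than 5 others in treated cells, and than these and WNT3 (1.18 ± 0.165) in control cells.

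Among the receptors in control cells, FZD2 (16.7 ± 0.744), FZD10 (14.4 ± 0.889) and FZD8 (8.07 ± 1.05) were the most abundant and did not overlap. FZD6 followed at 2.80 ± 0.849, and FZD7, FZD4, FZD5 and FZD1, at 1.07 to 1.70, overlapped with their neighbours. In treated cells the ranges of FZD10 (13.3 to 16.0) and FZD8 (11.8 to 15.1) overlapped, under FZD2 at 21.2 ± 1.77. LRP5 made up 92.2% of the co-receptor level and AXIN1 96.0% of that of the scaffolds. PORCN was the most abundant of the 48 genes on this scale, at 39.0 ± 3.55 in controls, and CTNNB1 stood at 14.2 ± 2.57. The target genes AXIN2, LEF1, NKD1 and RNF43 had control means of at most 0.123, whereas ZNRF3, also a feedback target, stood at 1.40 ± 0.183.

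**Figure D4:**
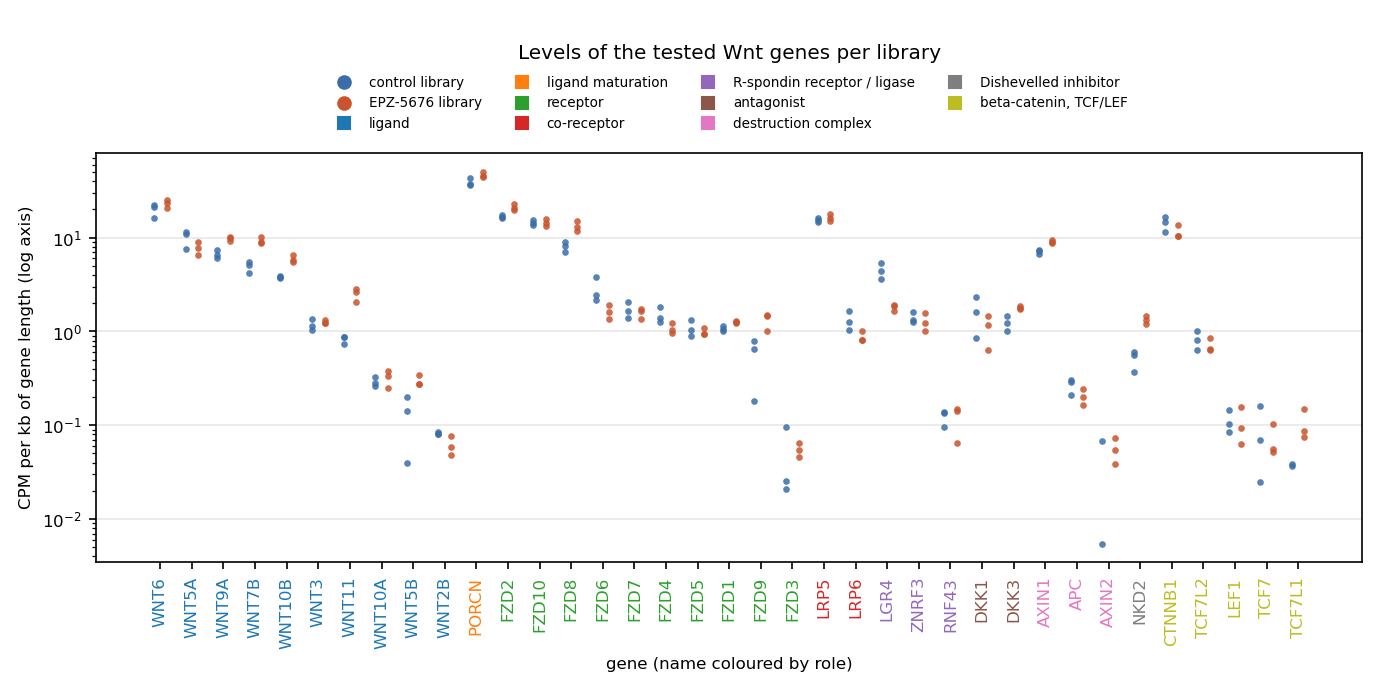
CPM per kilobase of gene length (log axis) for the 37 tested Wnt genes, 1 point per library, with control libraries in blue and EPZ-5676 libraries in orange; values of 0 (1 control library each of AXIN2 and TCF7L1) cannot be drawn on this axis. Genes are grouped by role, shown by the colour of the name, and ordered by the control mean. PORCN, WNT6, FZD2, FZD10, LRP5 and CTNNB1 stand above 10 in every control library.

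The 11 genes that were not tested were 9 ligands, LGR5 and NKD1. WNT3A, WNT8A, WNT2, WNT16, WNT9B and LGR5 had 0 reads in all 6 libraries. A count of 0 allows up to 3 counts, or 0.0754 to 0.0965 CPM by library, and this limit covers counting error only. WNT4 had 2 to 16 reads in the controls and 0 to 6 in the treated libraries, WNT7A 0 to 4 and 0 to 13. WNT8B and WNT1 had reads in at most 2 libraries.

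Outside these 48 genes, 122 further genes of the pathway were read from a list of roles. Of 84 tested, 14 rose and 12 fell, 16.7% and 14.3%, against 15.0% and 18.7% of all genes. After the correction 5 were higher and 6 lower, 5.95% and 7.14%, close to the 5.40% and 5.57% of all genes in that fit. The counts for each list of roles below are to be read beside the same shares of all genes. The count of rises was 8, 7 and 7 without treated replicate 1, treated replicate 3 and control replicate 1. Among receptors outside the Frizzled family, PTK7, a catalytically inactive receptor kinase of planar cell polarity, was at 22.9, 23.8 and 24.3 CPM in control cells and 46.0, 43.4 and 43.2 CPM in treated cells. PTK7 rose (0.90 ± 0.12, adjusted p = 5.5e-05) and passed in all 24 settings, with 0.60 after the correction. RYK fell (-0.60 ± 0.14, adjusted p = 0.0032), and stood at -0.05 after the correction, and ROR2 did not pass, with means of 33.9 and 34.5 CPM.

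Of 4 genes of ligand release and trafficking, 3 were tested and 1 rose. NOTUM, a secreted enzyme that removes the lipid of Wnt proteins, had means of 32.3 ± 3.79 CPM in control cells and 45.5 ± 3.59 CPM in treated cells (SD, n = 3; adjusted p = 0.00504 by edgeR, and 0.904 after the correction). The Wnt carrier WLS, at 61.9 and 59.5 CPM, and TRABD2A, at 51.3 and 48.2 CPM, did not pass. Of 22 genes listed as secreted modulators, among them also the receptors KREMEN1 and KREMEN2, 4 were tested and 1 fell. SFRP1, a decoy that binds Wnt proteins, was at 20.1, 24.7 and 19.5 CPM in control cells and 16.0, 17.0 and 14.5 CPM in treated cells (-0.44 ± 0.15, adjusted p = 0.0327, and 0.0473 after the correction). The uncorrected call of SFRP1 was lost without control replicate 2 or treated replicate 1 or 3, and the corrected one without any library except control replicate 3. KREMEN1, at 22.8 and 26.5 CPM, and KREMEN2, at 12.5 and 16.1 CPM, both receptors for DKK1, did not pass. No R-spondin gene had enough reads to be tested.

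Of 22 genes of Dishevelled and the destruction complex, 21 were tested, of which 5 rose and 5 fell. All 3 Dishevelled genes rose before the correction and none passed after it. They lie outside the rule by which genes were named and were added after their values were seen. The kinase gene GSK3A, whose product marks beta-catenin, was at 50.5, 69.7 and 61.0 CPM in control cells and 91.0, 84.5 and 84.8 CPM in treated cells (0.52 ± 0.12, adjusted p = 0.00229). CXXC5, an inhibitor that binds Dishevelled, was at 56.6, 61.0 and 56.4 CPM in control cells and 41.8, 41.5 and 45.2 CPM in treated cells (-0.44 ± 0.11, adjusted p = 0.00481). Neither gene's groups overlapped, and both passed in all 24 settings, with 0.45 for GSK3A and -0.77 for CXXC5 after the correction. The priming kinase gene CSNK1A1 fell (-0.46 ± 0.11, adjusted p = 0.00326) but stood at 0.07 after the correction, and CSNK1D and CSNK1E did not pass.

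Of 21 nuclear cofactor genes, 20 were tested; 1 rose and 3 fell. The repressors HBP1 (-0.64 ± 0.13) and CTBP2 (-0.54 ± 0.12) and the cofactor TBL1XR1 (-0.71 ± 0.16) fell before the correction, and 0 of the 20 passed after it. The gene that rose was the corepressor gene TLE2, which lies outside the rule by which genes were named. SMARCA4 and BCL9L, with the highest CPM among the cofactor genes without a call, did not pass. Of 20 genes often used as transcriptional targets, 14 were tested; 3 rose and 0 fell. EPHB2 (0.54 ± 0.15) and SOX9 (0.47 ± 0.15) rose, and SOX9 also passed after the correction (0.45, adjusted p = 0.0228), though not without treated replicate 3 or control replicate 1. SP5, among the most direct targets of beta-catenin, had 1, 2 and 13 reads in the controls and 10, 23 and 43 in the treated libraries (2.25 ± 0.84, adjusted p = 0.0443, and 0.191 after the correction). The groups of SP5 overlapped, and its call was lost without control replicate 1 or 2 or treated replicate 2 or 3. CD44, at 638 and 616 CPM, and BIRC5, at 263 and 252 CPM, did not pass. After the correction MYC and JUN were called lower, both outside the rule by which genes were named and seen only afterwards.

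Of 28 genes of planar cell polarity and the calcium branch, 19 were tested; 3 rose and 2 fell. The cadherins CELSR2 (0.51 ± 0.15) and CELSR3 (0.42 ± 0.13) rose and the kinase gene ROCK2 (-0.75 ± 0.18) fell, and none of the 3 passed after the correction (adjusted p = 0.276, 0.700 and 0.399). The small GTPase genes RHOA and RAC1 did not pass before it and were called higher after it (adjusted p = 0.0437 and 0.0412). The corrected call of RHOA was lost without control replicate 1 or 3 or treated replicate 1 or 3, and that of RAC1 without any library except control replicate 3. The cadherin gene CELSR1 likewise did not pass before it and was called lower after it (-0.39, adjusted p = 0.00473); it lies outside the rule for named genes and was added after its values were seen.

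The letters ATCAAAG, a core sequence bound by TCF/LEF factors, were looked for on either strand (CTTTGAT on the other) in RefSeq promoter windows on GRCh38.p14, from 250 bases before the start of a gene to 50 after it. Windows matched 34 of the 48 genes by symbol. WNT11, WNT7B and AXIN2 are among the genes without an entry. Of the 43 windows of the 34 matched genes 0 held the motif, against 2.62% of all 35116 windows. This says only that these letters are not in these windows.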

How the data were processed

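RNA-seq of 6 libraries of SW1990 cells was analysed, 3 of them treated with 5 µM EPZ-5676. Per the labels' protocols, oligo(dT) beads selected the mRNA and dUTP marked the second strand. The submitters' processing notes name HISAT2 2.2.1 and GRCh38. The deposited values are unnormalized read counts of whole reads, 1 column a library. No source used here gives the counting program, its strand setting or the annotation. All 58735 genes had the start and end of GENCODE release 29.

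edgeR 4.0.16 (R 4.3.3) tested the counts with filterByExpr at a minimum count of 10, TMM scaling, a robust two-sided quasi-likelihood test and a threshold of 0.05 on the adjusted p. The SE is the log2 fold change divided by the square root of F. The correction fitted natural splines (5 degrees of freedom each) of transcript GC content and log2 length to each library's deviation from the gene mean of log2 CPM (prior count 2) and entered them as offsets. A treatment effect that runs along GC content or length is removed with them. The script was tested on simulated data. The alternatives were other scalings and filters, DESeq2 1.42.0, limma-voom 3.58.1, a replicate block and each library left out. Members past the threshold in either fit, and the 3 with the highest level per length in each role, have values per library, and the others a range or read counts. In each list of further pathway genes, up to 3 called genes with the smallest p and 2 of the most expressed others are named. The p-values of CTNNB1, PORCN, WNT5A, CELSR1 and DOT1L and the 5 printed sequences were picked after values were seen. So were the calls given for the Dishevelled genes, TLE2, MYC and JUN. Members and lists were chosen with earlier results of these data known. Figures used Python 3.11.15 and matplotlib 3.10.9.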

Additional observations from a re-analysis of the deposited data

How the results depend on the processing

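The rise of WNT11 and WNT7B and the fall of LGR4 passed in all 24 alternatives, as did PTK7, GSK3A and CXXC5. With GC and length trends removed, 836 genes were higher and 863 lower, 2 members higher, and 5 further pathway genes higher and 6 lower. With GC trends alone removed these were 761, 729, 2, 4 and 5. Removal of length trends alone gave 2783 genes higher and 2226 lower, against 2326 and 2899, with 22 further pathway genes higher and 7 lower. Members called lower numbered 5 with no filter on low counts and 5 with protein-coding genes alone. Over the 12 fits that left out 1 library, 6 of them corrected, 2 to 10 members were higher and 1 to 6 lower, 397 to 2780 genes were higher and 512 to 3167 lower, and 2 to 17 further pathway genes were higher and 3 to 15 lower. Among the uncorrected of these fits the ranges were 7 to 10 and 1 to 6 members, with 1 lower without control replicate 1 and 6 without control replicate 2. Without treated replicate 1, 1350 genes were higher and 1884 lower, and 1753 were lower without control replicate 1. Apart from the corrections and omitted libraries, the cause of these shifts was not tested.

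Among the genes of the pathway whose fold changes or p-values are given in the text, the following turned in sign. With GC and length removed, with a replicate block added and with GC alone removed they were -0.06, -0.07 and -0.06 for AXIN1, -0.10 each for FZD2, -0.32 each for LRP5, -0.03, -0.03 and -0.02 for PORCN, 0.07 each for WNT5A and CSNK1A1, 0.06, 0.05 and 0.06 for CTNNB1, and 0.25, 0.25 and 0.26 for RAC1. CELSR1 was at 0.23 with length trends alone removed. Over the 12 fits leaving out 1 library they ran from -0.12 to 0.41 for AXIN1, -0.14 to 0.40 for FZD2, -0.36 to 0.14 for LRP5, -0.05 to 0.36 for PORCN, -0.51 to 0.15 for WNT5A, -0.50 to 0.13 for CSNK1A1, -0.47 to 0.15 for CTNNB1, -0.72 to 0.07 for LRP6, -0.72 to 0.02 for RYK, -0.06 to 0.29 for RAC1 and -0.47 to 0.03 for CELSR1.

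Deviations of samples with the same replicate number had correlations of -0.111, -0.0927 and 0.0466, and those of other pairs ran from -0.0799 to 0.155. These values cannot show whether samples of the same number shared a culture or a day. With the replicate number as a replicate block, 8 members were higher and 2 lower, of 1677 and 2219 genes. With the block and the correction, 2 members were higher, as were 688 genes and 3 further pathway genes, and 685 genes and 5 further pathway genes were lower. Depth limits the genes with few reads, among them AXIN2, LEF1, TCF7, TCF7L1, FZD3 and SP5.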
